A study of Mus musculus with 18 samples.

Results

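The 10 genes described here encode 5 phospholipases A_2_ (*Pla2g4a*, *Pla2g6*, *Pla2g7*, *Pla2g15* and *Pla2g12a*) and 5 proteins that make or sense leukotrienes (*Alox5*, *Alox5ap*, *Lta4h*, *Ltc4s* and *Cysltr1*). They were found by their symbols in a table of gene-level RNA-seq values, in which each symbol occurred once, and make up 10 of its 62197 genes.

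Phospholipases A_2_ cut a fatty acid from a membrane phospholipid. The cytosolic enzyme cPLA_2_, encoded by *Pla2g4a*, prefers phospholipids that carry arachidonic acid, and at the nuclear envelope this fatty acid can be passed by the protein FLAP (*Alox5ap*) to arachidonate 5-lipoxygenase (*Alox5*), which makes leukotriene A4. Leukotriene A4 hydrolase (*Lta4h*) turns this intermediate into leukotriene B4, whereas leukotriene C4 synthase (*Ltc4s*) joins it to glutathione, and the products of the latter branch act on receptors such as CysLT1 (*Cysltr1*). Myeloid cells are the main makers of leukotrienes, and cysteinyl leukotrienes are known to act on the migration of dendritic cells (DCs).

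The study asked how DCs respond to being squeezed and what cPLA_2_ contributes. DCs were grown from mouse bone marrow for 10 days with a supernatant that contains granulocyte-macrophage colony-stimulating factor, and bulk RNA-seq was made from 18 libraries, 3 for each of 6 conditions. cPLA_2_ WT and cPLA_2_ KO cells were left nonconfined and collected at the end of the culture, were squeezed to a height of 3 µm and collected 4 h after confinement, or received 100 ng/ml lipopolysaccharide (LPS) for 30 min and were collected the next day. Treatment and time therefore cannot be told apart. cPLA_2_ KO cells came from mice whose floxed *Pla2g4a* is deleted by a Cre recombinase driven by *Itgax*, the gene of the DC marker CD11c, so the deletion depends on cells that use this promoter. According to the Methods, the controls were littermates or mice of the same age, and granulocytes and macrophages that arise in the same culture were removed by how strongly they adhere, so that the semiadherent cells were taken. The protocol text of the labels mentions LPS for every sample, but titles and treatment entries name it in the LPS groups alone, and these entries were followed. The labels give neither the age of the mice nor which replicates came from separate animals, and p-values measure the spread between these libraries.

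The values are normalized counts, which are reads on a gene divided by a size factor of the library. Whole reads could be recovered from them, and a library held between 33027230 and 61300021 reads on genes. The median was 39851237 reads for nonconfined and 42049558 for confined cPLA_2_ WT libraries, and 37116045 for nonconfined and 33672070 for confined cPLA_2_ KO libraries. LPS libraries labelled cPLA_2_ WT held a median of 52482280 reads and those labelled cPLA_2_ KO a median of 43169041. The weakest of the 10 genes, *Pla2g6*, still had 226 reads or more in each library, so all 10 passed the filter (10 or more normalized counts in 3 or more libraries) that left 17875 genes to test. Groups were compared with limma on log2(normalized count + 1), with p-values adjusted over all genes tested by the Benjamini-Hochberg method, and a gene was called at an adjusted p under 0.05.

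The targeted gene and the genotype labels were examined first. *Pla2g4a* (identifier GSMG0002495) lies at chr1:149705372-149837041 of GRCm39 on the minus strand, and its canonical transcript in GENCODE has 18 exons. Nonconfined cPLA_2_ WT libraries had 697, 686 and 770.4 normalized counts of *Pla2g4a*, and nonconfined cPLA_2_ KO libraries had 548, 542 and 533. Confined cPLA_2_ WT libraries had 1369, 1430.3 and 1321, and confined cPLA_2_ KO libraries had 923, 871 and 919.5. In both treatments each cPLA_2_ KO library was below each cPLA_2_ WT library, although the transcript was still counted in the knockout, and gene-level counts do not show which exons remained. The LPS libraries labelled cPLA_2_ WT had 1005, 969 and 967 normalized counts, and those labelled cPLA_2_ KO had 1065, 1032 and 1028. Here the libraries labelled cPLA_2_ KO were the higher ones.

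Genes of the Y chromosome also went against the labels of the LPS libraries. The summed level of *Ddx3y*, *Eif2s3y*, *Kdm5d* and *Uty* was at most 4.57 normalized counts in the 6 nonconfined and confined cPLA_2_ WT libraries and at least 1718 in the 6 nonconfined and confined cPLA_2_ KO libraries. Genotype and the sex of the donors cannot be told apart in these 12 libraries. *Xist*, a transcript of the inactive X chromosome, had between 12153 and 33681 normalized counts in them, so the cPLA_2_ KO libraries hold both *Xist* and Y-linked reads, and the labels do not say whether animals were pooled. In LPS, replicates 1, 2 and 3 labelled cPLA_2_ WT had Y-linked sums of 2329.9, 3.66 and 1271 normalized counts, and those labelled cPLA_2_ KO had 4.24, 2589 and 1426. Replicates 1 and 3 labelled cPLA_2_ WT and replicate 1 labelled cPLA_2_ KO thus go against their labels. Replicate 3 of both labels lay between the others and below each nonconfined and confined cPLA_2_ KO library, and the one labelled cPLA_2_ KO is kept below because its label is that of libraries with Y-linked reads. The LPS groups are therefore called by their labels only, the LPS response is given as the mean of both labels, and the changes of named genes and the counts that rest on LPS libraries are also given without these 3 libraries, a setting chosen after the values had been seen. In the Results, counts between the labels, and of markers in confined cells against LPS, are given with all 6 LPS libraries only.

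All 9 DC markers passed the filter, none was at 0 in any library, and *Cd74*, the invariant chain of MHC class II, was the most abundant. The sum of the list is carried by *Cd74* and the MHC class II genes *H2-Aa* and *H2-Ab1*, whereas *Flt3* was low. It fell with confinement from a mean of 119 to 41.4 normalized counts in the wild type and from 141 to 30.4 in the knockout (-1.53 and -2.17 on the log2 scale, adjusted p = 1.96e-06 and 2.64e-08), and had means of 139 and 121 in LPS libraries labelled cPLA_2_ WT and cPLA_2_ KO. In the wild type *Ccr7* and *Cd86* went the other way, from means of 15884 to 32945 and from 3151 to 8253. In the knockout *Ccr7* went from 16451 to 8919 and *Cd86* from 4036 to 4082. LPS libraries labelled cPLA_2_ WT had means of 50294 and 12117 for these 2 genes, and those labelled cPLA_2_ KO 51727 and 12333. The summed level of the DC markers in replicates 1, 2 and 3 was 445734, 420631 and 425813 normalized counts in nonconfined cPLA_2_ WT and 529047, 496733 and 516144 in nonconfined cPLA_2_ KO libraries. After confinement it came to 416689.7, 388169 and 400284 in cPLA_2_ WT and 366465, 352971 and 365726 in cPLA_2_ KO libraries. In LPS it was 647273, 562893 and 595161 with the label cPLA_2_ WT and 568044, 636429 and 612365 with the label cPLA_2_ KO. The sums were highest in LPS, and the nonconfined cPLA_2_ KO libraries were above the nonconfined cPLA_2_ WT libraries. Of the 9 markers 4 were called higher, against 4.78% of all genes, and 1 lower, against 4.11%, between these 2 groups, the lower one being *Itgax*, whose promoter drives the Cre, with means of 6281 for the wild type and 5175 for the knockout and no overlap.

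Transcripts that mark other myeloid cells were counted as well, and several such cells are known users of the leukotriene pathway. All 9 neutrophil markers passed the filter, and their most abundant gene was *S100a9*. The neutrophil sum was 239127, 244208 and 242596 normalized counts in nonconfined cPLA_2_ WT and 370216, 332916 and 358109.9 in nonconfined cPLA_2_ KO libraries. It was 154377, 147169 and 144972 in confined cPLA_2_ WT libraries, 333954, 346794 and 330900.4 in those of confined cPLA_2_ KO cells, 309112, 290414 and 292480 in LPS libraries labelled cPLA_2_ WT, and 277055, 312690.3 and 294698 in those labelled cPLA_2_ KO. Confined cPLA_2_ WT cells had the lowest neutrophil sum of the 6 conditions, and with confinement the change of 8 of the 9 markers was higher in cPLA_2_ KO than in cPLA_2_ WT cells by the test of the interaction, in which 10.2% of all genes were called higher and 15.6% lower. In the same test 6 of 9 DC markers were lower and none higher, mast cell and basophil markers were split into 4 higher and 2 lower of 10, 1 of 8 eosinophil markers was higher and 1 lower, and 1 of 9 macrophage markers was lower. With the same total per library 9 neutrophil markers were higher there, while 1 DC marker was higher and 3 lower. Under that scaling macrophage markers turned to 3 higher and 1 lower, eosinophil markers to 2 and 1, and mast cell and basophil markers to 4 and 1.

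All 8 eosinophil markers passed the filter, led by *Prg2*, and none was at 0. Their sum was 33439.7, 33348 and 33284 normalized counts in nonconfined cPLA_2_ WT and 82529.7, 76508 and 78589 in nonconfined cPLA_2_ KO libraries. After confinement it was 9858, 9354 and 9236 in cPLA_2_ WT and 25013, 24679 and 25560.2 in cPLA_2_ KO libraries, so that confined cells were below nonconfined cells in both genotypes. LPS replicates 1, 2 and 3 had sums of 47547, 27547 and 38108 with the label cPLA_2_ WT and 27528, 47777 and 38759 with the label cPLA_2_ KO. In LPS the libraries with the highest eosinophil sums were also those with the highest Y-linked sums, and those with the lowest had hardly any Y-linked reads.

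Of the mast cell and basophil list, 10 of 10 genes passed the filter, and none was at 0. Its sum before confinement was 10619, 10668 and 10766 normalized counts for cPLA_2_ WT and 15854, 15383 and 15468 for cPLA_2_ KO libraries, and after it 17022, 16371 and 16913 for cPLA_2_ WT and 9125, 8814 and 9123 for cPLA_2_ KO libraries. With LPS it was 19559, 21692 and 20347 under the label cPLA_2_ WT and 22051, 19695 and 20856 under the label cPLA_2_ KO. *Hdc*, which encodes histidine decarboxylase and had the highest level of this list over all 18 libraries, rose from a mean of 735 in nonconfined to 12369.5 in confined cPLA_2_ WT libraries, and from 1039.99 to 1458 in those of cPLA_2_ KO cells. *Cpa3*, a protease of mast cells, had the highest level of the list in nonconfined cPLA_2_ WT libraries and fell from 3301 to 1275 there. The higher sum of the list in confined cPLA_2_ WT and in LPS libraries is carried by *Hdc*, which had means of 10841 and 10976 in LPS libraries labelled cPLA_2_ WT and cPLA_2_ KO. All 9 macrophage markers passed the filter as well, with *Csf1r* as the most abundant and none at 0. The macrophage sum before confinement was 68272, 65319 and 66297 normalized counts for cPLA_2_ WT and 72102, 76702 and 73889.6 for cPLA_2_ KO libraries, and after it 67538, 65270.5 and 66782 for cPLA_2_ WT and 76911, 70026 and 75058 for cPLA_2_ KO libraries. In LPS libraries it was 65110.3, 53783 and 59159.9 with the label cPLA_2_ WT and 53612, 63167 and 59057 with the label cPLA_2_ KO. Of 6 lymphocyte markers 5 passed the filter, with sums between 71.1 and 240.2 normalized counts over the 18 libraries, *Cd3d* as the most abundant gene and up to 2 of the 6 genes at 0 in a library. The part of these cells in the results below was not tested, and in bulk RNA fewer cells of a type cannot be told apart from less RNA per cell.

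**Figure D1:**
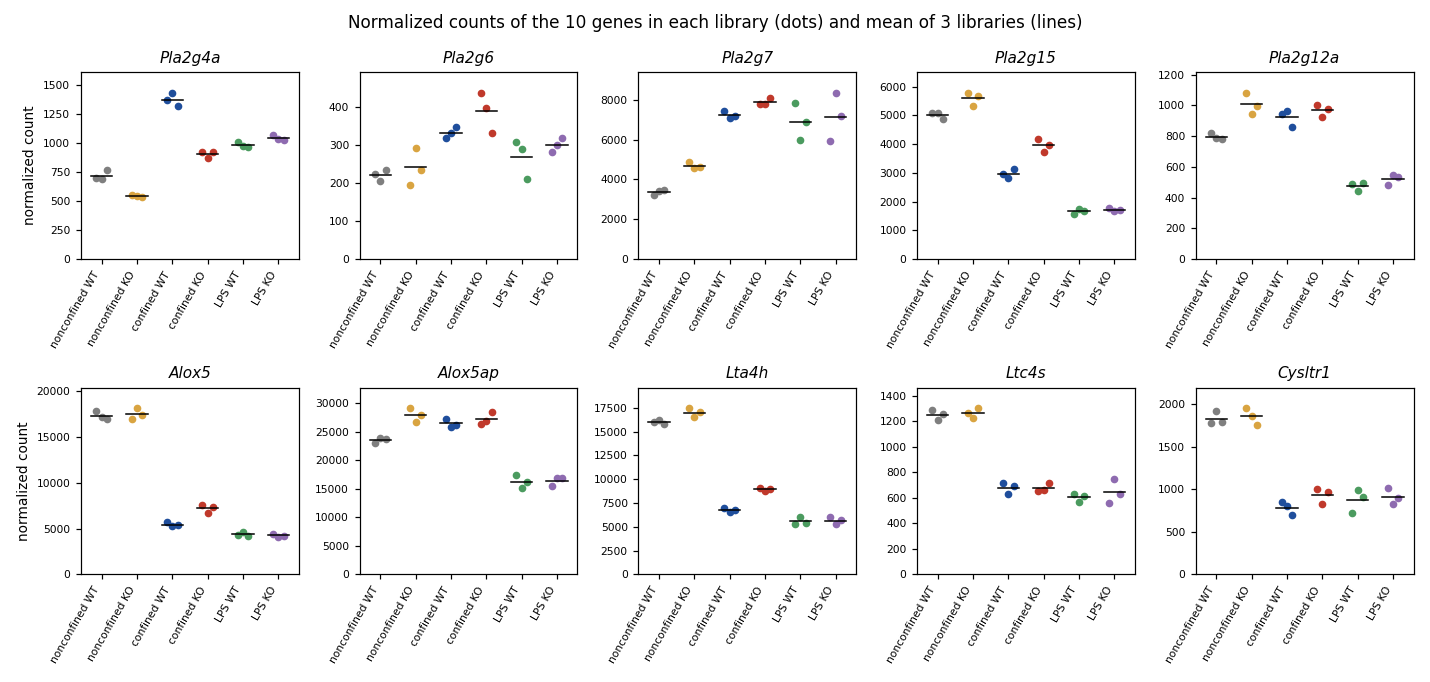
Normalized counts (vertical axes, starting at 0) of the 10 genes in each of the 18 libraries, with a dot for each library, a line at the mean of the 3 libraries and the 6 conditions along the horizontal axes; LPS groups are by label. *Alox5* lies between 16939.8 and 18149 in nonconfined libraries and between 4139.7 and 7644 in all others, while *Pla2g4a* is highest in confined cPLA_2_ WT libraries.

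The abundance of the 10 genes spanned a wide range in resting cells. Per kilobase of the canonical transcript, which allows levels to be set side by side between genes, *Alox5ap* was the most abundant in nonconfined cPLA_2_ WT libraries with a mean of 8467 normalized counts. *Lta4h* followed with 7793 per kilobase and *Alox5* with 6135. *Ltc4s* had 1898, *Pla2g15* 1600 and *Pla2g7* 1295 per kilobase. The other 4 genes were lower, with 354 for *Cysltr1*, 325 for *Pla2g12a*, 251 for *Pla2g4a* and 64.6 for *Pla2g6*. In confined cPLA_2_ WT libraries *Alox5ap* had 9493, *Lta4h* 3303 and *Alox5* 1930 per kilobase.

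Confinement changed all 10 genes in cPLA_2_ WT cells, 5 in each direction. *Pla2g4a*, *Pla2g7*, *Pla2g6*, *Pla2g12a* and *Alox5ap* were higher and *Alox5*, *Lta4h*, *Cysltr1*, *Ltc4s* and *Pla2g15* were lower in confined cells, although the increases of *Pla2g12a* and *Alox5ap* turned into differences of -0.01 and -0.06 on the log2 scale, not called, when each library was scaled to the same total. Over all genes tested, 28.2% were higher and 28.4% lower, so calls in this comparison were common and the median change was -0.01 for all genes and -0.30 for the 10. In the same comparison 8 of 9 neutrophil, 6 of 8 eosinophil, 7 of 10 mast cell and basophil, 4 of 9 macrophage and 6 of 9 DC markers were lower, while 2 DC markers, 2 of mast cells and basophils, 1 of eosinophils and 1 of macrophages were higher. With the same total per library 9 neutrophil, 8 mast cell and basophil, 6 macrophage and 7 DC markers were lower. Higher ones were then 0, 1, 0 and 2, and eosinophil counts stayed the same. In cPLA_2_ KO cells 3 of the 10 genes rose (*Pla2g4a*, *Pla2g6* and *Pla2g7*), against 22.8% of all genes, and 5 fell (*Alox5*, *Lta4h*, *Cysltr1*, *Ltc4s* and *Pla2g15*), against 23.4% of all genes. The median change there was -0.28 for the 10 genes and 0.01 for all genes. Lower markers in these cells were 3 of 9 for neutrophils, 7 of 8 for eosinophils, 8 of 10 for mast cells and basophils, 5 of 9 for macrophages and 8 of 9 for DCs, and higher ones 1 for neutrophils, 2 for mast cells and basophils and 1 for macrophages. With the same total per library 5 neutrophil markers were lower and 1 higher there. The part of these markers in the changes of the 10 genes was not tested.

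LPS changed all 10 genes too. *Pla2g4a*, *Pla2g6* and *Pla2g7* rose, against 37.2% of all genes, and the other 7 fell, against 34.3% of all genes. The median change was -0.93 for the 10 genes and 0.02 for all genes tested. Without the 3 LPS libraries that go against their labels 3 of the 10 genes were still higher and 7 lower, against 34.6% and 31.8% of all genes, with the same 2 medians. With LPS 7 of 9 DC markers were higher and 1 lower (7 and 0 without those libraries), a split that turned to 3 higher and 6 lower with the same total per library. Of the other markers, 7 of 8 for eosinophils were lower and none higher, 6 of 9 for macrophages lower and 2 higher, 7 of 10 for mast cells and basophils lower and 2 higher (7 and 1 without those libraries), and 4 of 9 for neutrophils lower and 4 higher (5 and 4 without them, and 9 and 0 with the same total per library). Scaling to the same total moved the median of all genes to -0.46 in this comparison and to -0.23 for confinement of cPLA_2_ WT cells, because the summed normalized counts of a library rose from a mean of 34125100 in nonconfined cPLA_2_ WT to 39890270 in confined cPLA_2_ WT and 48718670 in LPS libraries labelled cPLA_2_ WT. Under that scaling *Pla2g6* differed by -0.20 with LPS, which was not called, and the other 9 genes kept their direction and call. Eosinophil markers were then 8 lower and 0 higher with LPS, macrophage markers 7 lower and 1 higher, and mast cell and basophil markers 9 lower and 1 higher. Of all calls, 52.0% were increases with LPS on the deposited scale and 26.4% under the same total, and for confinement of cPLA_2_ WT cells these shares were 49.8% and 32.7%. Comparisons with the same nonconfined libraries share their controls.

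**Figure D2:**
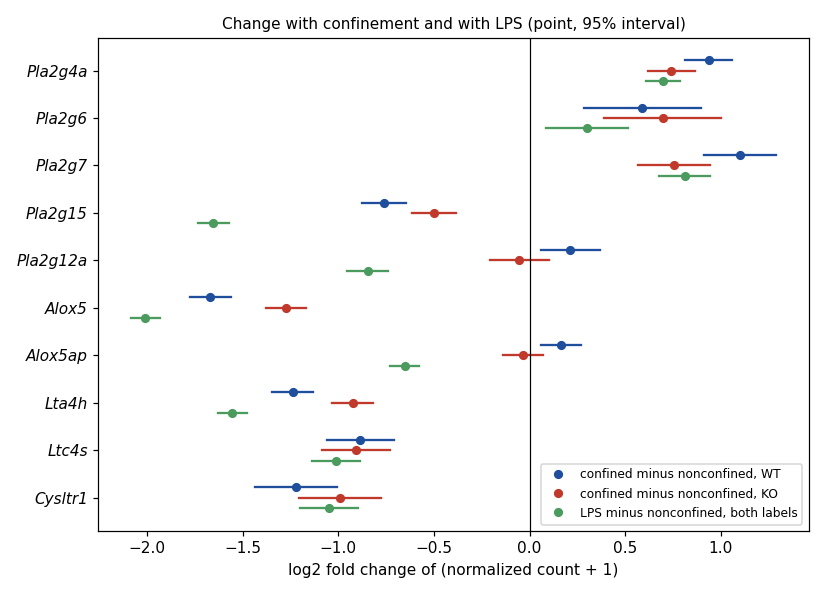
Log2 fold changes of (normalized count + 1) on the horizontal axis for each of the 10 genes, with points for the estimate and lines for the 95% interval from limma; blue is confined minus nonconfined in cPLA_2_ WT, red the same in cPLA_2_ KO, and green the mean of both LPS labels minus the mean of both nonconfined groups. *Alox5* has the most negative values of the 10 genes in each comparison (-1.67, -1.27 and -2.01), and with every library scaled to the same total *Pla2g12a* and *Alox5ap* in blue and *Pla2g6* in green change sign.

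Among the phospholipases, *Pla2g4a* itself rose with confinement. The change was a 1.91-fold increase in cPLA_2_ WT cells (log2 fold change 0.94, 95% interval 0.81 to 1.06, adjusted p = 1.41e-11 from limma) and a 1.67-fold increase in cPLA_2_ KO cells (0.74, interval 0.62 to 0.86, adjusted p = 1.57e-09). The interaction, which is the change in cPLA_2_ KO minus the change in cPLA_2_ WT cells, was -0.20 (interval -0.37 to -0.02) and was not called (adjusted p = 0.0952). It was called when nonconfined cPLA_2_ WT replicate 3, the highest of its group, was left out (-0.25, adjusted p = 0.0404), and it was -0.0070 (adjusted p = 0.956) with the same total per library. In cPLA_2_ KO cells *Pla2g4a* was lower than in cPLA_2_ WT cells by 0.41 before (adjusted p = 0.00019) and by 0.60 after confinement (adjusted p = 3.81e-08), each on the log2 scale. LPS raised it by 0.70 (interval 0.61 to 0.79), by 0.20 with the same total per library and by 0.68 without the 3 LPS libraries that go against their labels. In the 3 LPS libraries kept, those labelled cPLA_2_ KO were still higher than the lone library labelled cPLA_2_ WT, by 0.09. From high to low on the deposited scale, the order of the conditions was confined cPLA_2_ WT, LPS labelled cPLA_2_ KO, LPS labelled cPLA_2_ WT, confined cPLA_2_ KO, nonconfined cPLA_2_ WT and nonconfined cPLA_2_ KO, and no neighbours in this order overlapped. The place of confined cPLA_2_ KO cells below LPS depended on the scaling. Their difference from the mean of both LPS labels was -0.16 on the deposited scale and 0.28 with the same total per library.

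*Pla2g7* (GSMG0023249, chr17:43879340-43923084, plus strand) encodes the secreted acetylhydrolase that inactivates platelet-activating factor. It had 3219, 3442 and 3473 normalized counts in nonconfined cPLA_2_ WT and 4860.2, 4557 and 4604 in nonconfined cPLA_2_ KO libraries. Confined cPLA_2_ WT libraries had 7439.6, 7089 and 7193, and confined cPLA_2_ KO libraries had 7774, 7784 and 8078. Each confined library was above each nonconfined library, and the genotypes did not overlap in either treatment. The increase with confinement was 2.14-fold in cPLA_2_ WT (1.10, interval 0.91 to 1.29, adjusted p = 1.03e-09) and 1.69-fold in cPLA_2_ KO cells (0.75, interval 0.56 to 0.94, adjusted p = 6.47e-07). The knockout differed from the wild type by 0.47 before confinement (adjusted p = 0.00252) and by 0.12 after it (adjusted p = 0.316). With the same total per library the latter difference was 0.28 and was called (adjusted p = 0.00965). The interaction of -0.35 missed the threshold (adjusted p = 0.0520) and passed it in 5 of 22 alternatives, such as edgeR on the recovered reads (-0.38, adjusted p = 0.0324), with adjusted p between 0.000216 and 0.315 over these alternatives. It was -0.16 with the same total per library (adjusted p = 0.315).

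In LPS, *Pla2g7* had 7837, 5968 and 6909.7 normalized counts with the label cPLA_2_ WT and 5934, 8352 and 7169 with the label cPLA_2_ KO. The highest value of each label was in a library with a high Y-linked sum, and the lowest in a library with a sum near 0. LPS raised *Pla2g7* by 0.81 (interval 0.68 to 0.95), by 0.315 with the same total per library and by 0.77 without the 3 libraries that go against their labels. Without them the remaining 2 libraries labelled cPLA_2_ KO were above the remaining library labelled cPLA_2_ WT by 0.37. Eosinophil sums of these libraries were 47777 and 38759 with the label cPLA_2_ KO and 27547 with the label cPLA_2_ WT. Macrophage sums were 63167 and 59057 against 53783. The part of these cells in the difference was not tested.

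*Pla2g6* (GSMG0020034, chr15:79170428-79212571, minus strand) encodes a calcium-independent phospholipase A_2_ and was the weakest of the 10 genes. Nonconfined cPLA_2_ WT libraries had 222, 205 and 235 normalized counts, and nonconfined cPLA_2_ KO libraries had 196, 293 and 235. Confined cPLA_2_ WT libraries had 318, 332 and 347, and confined cPLA_2_ KO libraries had 437, 398 and 332. Within each genotype every confined library was above every nonconfined library, whereas the genotypes overlapped. The increases of 0.59 in cPLA_2_ WT (interval 0.28 to 0.89, adjusted p = 0.00162; 0.37 with the same total per library) and 0.70 in cPLA_2_ KO cells (interval 0.39 to 1.00, adjusted p = 0.000513) had an interaction of 0.11 (adjusted p = 0.763). The interaction was 0.29 with the same total per library (adjusted p = 0.285). In LPS it had 308, 288 and 211 normalized counts with the label cPLA_2_ WT and 281, 299.8 and 319.5 with the label cPLA_2_ KO. These overlapped the nonconfined libraries. The LPS difference of 0.30 (interval 0.08 to 0.51, adjusted p = 0.0136) lost its call in 3 of 26 alternatives, such as without nonconfined cPLA_2_ KO replicate 1 (0.23, adjusted p = 0.0503). It turned to -0.20 with the same total per library, and adjusted p reached 0.119 over the alternatives. Without the LPS libraries that go against their labels it was 0.38 (adjusted p = 0.00690).

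*Pla2g12a* (GSMG0034693, chr3:129672255-129689474, plus strand), a secreted phospholipase A_2_, had 819, 786 and 778 normalized counts in nonconfined cPLA_2_ WT and 1081, 943 and 998 in nonconfined cPLA_2_ KO libraries. After confinement it had 946, 965 and 856 in cPLA_2_ WT and 1005, 925 and 979.6 in cPLA_2_ KO libraries. The nonconfined cPLA_2_ WT libraries were below all others of these 4 groups. *Pla2g12a* was 0.34 higher in nonconfined cPLA_2_ KO than cPLA_2_ WT cells (adjusted p = 0.00595) and rose by 0.21 with confinement in cPLA_2_ WT cells (interval 0.06 to 0.37, adjusted p = 0.0176). The latter call was lost with TMM scaling (0.17, adjusted p = 0.0783) and without nonconfined cPLA_2_ WT replicate 3 (0.20, adjusted p = 0.0562), confined cPLA_2_ WT replicate 1 (0.19, adjusted p = 0.0586) or confined cPLA_2_ WT replicate 2 (0.18, adjusted p = 0.0770). In cPLA_2_ KO cells the difference was -0.05 (interval -0.21 to 0.10), and the interaction of -0.27 was not called (adjusted p = 0.0652). It was called in 6 of 22 alternatives, with adjusted p between 0.0292 and 0.556 over them, and was -0.078 with the same total per library. LPS libraries had 488, 443 and 492 normalized counts with the label cPLA_2_ WT and 483, 547 and 533 with the label cPLA_2_ KO, below every other library. The decrease was -0.85 with all LPS libraries, -1.34 with the same total per library and -0.87 without the LPS libraries that go against their labels.

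*Pla2g15* (GSMG0053960, chr8:106876986-106891350, plus strand) encodes the lysosomal phospholipase A_2_. It had 5080.1, 5100.1 and 4884 normalized counts in nonconfined cPLA_2_ WT and 5782, 5319 and 5672 in nonconfined cPLA_2_ KO libraries. Confined cPLA_2_ WT libraries had 2966, 2816 and 3119, and confined cPLA_2_ KO libraries had 4162, 3725 and 3981. LPS libraries had 1577, 1756 and 1655 with the label cPLA_2_ WT and 1776, 1657 and 1691 with the label cPLA_2_ KO. The libraries fell into steps from nonconfined over confined to LPS without overlap, and within the nonconfined and the confined step each cPLA_2_ KO library was above each cPLA_2_ WT library.

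The loss of *Pla2g15* with confinement was 1.69-fold in cPLA_2_ WT cells (-0.76, interval -0.87 to -0.65, adjusted p = 1.21e-10) and 1.41-fold in cPLA_2_ KO cells (-0.50, interval -0.61 to -0.39, adjusted p = 1.81e-07). The interaction of 0.26 (interval 0.10 to 0.42) was called (adjusted p = 0.0163), but not without confined cPLA_2_ WT replicate 2 (0.22, adjusted p = 0.0517) or confined cPLA_2_ KO replicate 1 (0.22, adjusted p = 0.0511), and it was 0.45 with the same total per library. With LPS it fell 3.14-fold (-1.65, interval -1.73 to -1.57), and by 1.63 on the log2 scale without the libraries that go against their labels.

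Of the leukotriene genes, *Alox5* (GSMG0046995, chr6:116387032-116438139, minus strand) fell most. This gene of 14 exons encodes arachidonate 5-lipoxygenase, which makes leukotriene A4. Nonconfined cPLA_2_ WT libraries had 17849, 17182 and 16999 normalized counts, and nonconfined cPLA_2_ KO libraries had 16939.8, 18149 and 17376. After confinement 5751, 5244 and 5372 were left in cPLA_2_ WT and 7644, 6732 and 7351 in cPLA_2_ KO libraries. The genotypes overlapped before confinement and not after it.

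The decrease of *Alox5* was 3.18-fold in cPLA_2_ WT (-1.67, interval -1.78 to -1.56, adjusted p = 5.85e-17) and 2.42-fold in cPLA_2_ KO cells (-1.27, interval -1.38 to -1.17, adjusted p = 2.48e-14). In size it exceeded the change of 89.5% of all genes tested in cPLA_2_ WT and of 88.3% in cPLA_2_ KO cells. The interaction of 0.40 (interval 0.24 to 0.55, adjusted p = 0.000262) was called under each of 22 alternatives, with estimates between 0.36 and 0.59. The genotypes differed by 0.01 before confinement (adjusted p = 0.933; -0.022 with the same total per library) and by 0.41 after it (adjusted p = 1.36e-06). In LPS *Alox5* had 4342, 4599 and 4222 normalized counts with the label cPLA_2_ WT and 4438, 4139.7 and 4224 with the label cPLA_2_ KO, which is below each confined library. LPS lowered it 4.02-fold (-2.01, interval -2.08 to -1.93), with -1.99 without the libraries that go against their labels.

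*Alox5ap* (GSMG0041476, chr5:149201814-149224963, plus strand), which encodes the 5-lipoxygenase-activating protein FLAP, did not follow its partner *Alox5* with confinement, although both fell with LPS. It had 23117, 24007 and 23799 normalized counts in nonconfined cPLA_2_ WT and 29132, 26666 and 27952 in nonconfined cPLA_2_ KO libraries. Confined libraries had 27339.6, 25876 and 26302 in cPLA_2_ WT and 26386, 26846 and 28501 in cPLA_2_ KO. Nonconfined cPLA_2_ WT libraries were the lowest of these 4 groups, and the other 3 groups overlapped. The knockout was 0.24 higher before confinement (interval 0.13 to 0.35, adjusted p = 0.00522), and confinement raised *Alox5ap* by 0.16 in cPLA_2_ WT cells (interval 0.06 to 0.27, adjusted p = 0.00879), a call lost with TMM scaling (0.12, adjusted p = 0.0764). In cPLA_2_ KO cells the difference was -0.04 (interval -0.14 to 0.07, adjusted p = 0.608). The interaction of -0.20 (adjusted p = 0.0458) was just past the threshold and was lost in 13 of 22 alternatives, among them TMM scaling (adjusted p = 0.0729), no filter (adjusted p = 0.0850) and the same total per library (-0.01, adjusted p = 0.909).

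In LPS libraries *Alox5ap* had 17412, 15158 and 16185 normalized counts with the label cPLA_2_ WT and 15549, 16923 and 16875 with the label cPLA_2_ KO. All 6 were below every nonconfined and confined library. The decrease with LPS was 1.57-fold (-0.65, interval -0.73 to -0.58), and it was -1.15 with the same total per library and -0.68 without the libraries that go against their labels.

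*Lta4h* (GSMG0004902, chr10:93289250-93320758, plus strand) encodes the hydrolase that makes leukotriene B4. It had 15986, 16205 and 15805 normalized counts in nonconfined cPLA_2_ WT and 17428, 16503 and 17027 in nonconfined cPLA_2_ KO libraries. Confined cPLA_2_ WT libraries had 6956, 6588 and 6797, and confined cPLA_2_ KO libraries had 9125, 8804 and 8929. As for *Alox5*, all confined libraries were below all nonconfined libraries, and after confinement the cPLA_2_ KO libraries stayed above the cPLA_2_ WT libraries. The decrease was 2.36-fold in cPLA_2_ WT (-1.24, interval -1.35 to -1.13, adjusted p = 1.14e-14) and 1.90-fold in cPLA_2_ KO cells (-0.92, interval -1.03 to -0.82, adjusted p = 5.12e-12). The interaction of 0.32 (interval 0.16 to 0.47, adjusted p = 0.00255) was called in each of 22 alternatives, between 0.28 and 0.50. A neighbouring gene without a symbol overlaps *Lta4h* in the table, with a mean of 56.3 normalized counts.

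*Lta4h* was lowest in LPS, with 5277, 6068 and 5430.4 normalized counts with the label cPLA_2_ WT and 6041, 5274 and 5674 with the label cPLA_2_ KO. Each of these was below each confined library. LPS lowered it 2.93-fold (-1.55, interval -1.63 to -1.48), and by 1.52 on the log2 scale without the libraries that go against their labels.

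*Ltc4s* (GSMG0009149, chr11:50127289-50129359, minus strand) encodes the enzyme at the head of the cysteinyl leukotriene branch. It had 1289, 1208 and 1261 normalized counts in nonconfined cPLA_2_ WT and 1269, 1228 and 1302 in nonconfined cPLA_2_ KO libraries, with 716, 629 and 692 in confined cPLA_2_ WT libraries, and 653, 659 and 714 in those of confined cPLA_2_ KO cells. The genotypes overlapped in both treatments, and the treatments did not. The decrease was 1.85-fold in cPLA_2_ WT (-0.88, interval -1.06 to -0.71, adjusted p = 1.11e-08) and 1.88-fold in cPLA_2_ KO cells (-0.91, interval -1.08 to -0.73, adjusted p = 1.59e-08), with an interaction of -0.02 (interval -0.27 to 0.23, adjusted p = 0.918) that turned to 0.17 (adjusted p = 0.251) with the same total per library. LPS libraries had 632, 571 and 616 normalized counts with the label cPLA_2_ WT and 561, 751 and 632 with the label cPLA_2_ KO, a range that overlapped the confined libraries. The LPS change was -1.01 (interval -1.14 to -0.89), or -1.004 without the libraries that go against their labels.

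*Cysltr1* (GSMG0062094, chrX:105620115-105647285, minus strand), the gene of the receptor CysLT1, was the other member of the cysteinyl branch. Its values were 1776, 1913 and 1791 normalized counts in nonconfined cPLA_2_ WT and 1949, 1863 and 1759 in nonconfined cPLA_2_ KO libraries, against 847, 809 and 701 in confined cPLA_2_ WT libraries, and 1007, 833 and 971 in those of confined cPLA_2_ KO cells. It fell 2.33-fold in cPLA_2_ WT (-1.22, interval -1.43 to -1.01, adjusted p = 1.52e-09) and 1.99-fold in cPLA_2_ KO cells (-0.99, interval -1.20 to -0.78, adjusted p = 8.26e-08). The interaction was 0.23 (interval -0.07 to 0.53, adjusted p = 0.275), and it was called with the same total per library (0.42, adjusted p = 0.0352). With LPS, 723, 995 and 911 normalized counts were found under the label cPLA_2_ WT and 1009.8, 824 and 903 under the label cPLA_2_ KO. All confined and LPS libraries overlapped each other and lay below the nonconfined libraries, with an LPS change of -1.05 (interval -1.20 to -0.90), or -0.99 without the libraries that go against their labels. *Cysltr1* is X-linked, and *Gm5127*, which overlaps it in the table, had a mean of 14.1 normalized counts.

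In the test of the interaction, 3 of the 10 genes (*Alox5*, *Lta4h* and *Pla2g15*) were called higher, which means a smaller decrease in cPLA_2_ KO cells, against 10.2% of all genes, and 1 (*Alox5ap*) was called lower, against 15.6% of all genes. The same total per library turned the split of all calls from 39.5% to 70.7% higher and moved the median of all genes from 0.05 to 0.24, and 4 of the 10 genes (*Alox5*, *Lta4h*, *Pla2g15* and *Cysltr1*) were then called higher and none lower, against 26.5% and 11% of all genes. Between nonconfined genotypes, 3 genes (*Pla2g7*, *Pla2g12a* and *Alox5ap*) were higher in cPLA_2_ KO cells, against 4.78% of all genes, and 1 (*Pla2g4a*) was lower, against 4.11%. These shares rest on 854 higher and 734 lower genes, and the number called in either direction became 993, 842 and 846 when nonconfined cPLA_2_ WT replicate 1, 2 or 3 was left out, and 756, 2097 and 864 without nonconfined cPLA_2_ KO replicate 1, 2 or 3. The split of all calls there was 53.8% higher on the deposited scale and 42.0% under the same total. Between confined genotypes, 3 genes (*Pla2g15*, *Alox5* and *Lta4h*) were higher in cPLA_2_ KO cells, against 18.8%, and *Pla2g4a* alone was lower, against 20.6%. With the same total per library 9 of the 10 genes were called between confined genotypes, *Pla2g4a* still being the only lower one, against 33.6% of all genes called higher and 14.6% lower under that scaling. It moved the share of increases among the calls from 47.7% to 69.7% and the median of all genes from 0.04 to 0.19. Neutrophil markers moved in these comparisons as well, with 7 of 9 higher in nonconfined and 9 of 9 higher in confined cPLA_2_ KO cells, as did eosinophil markers, with 6 of 8 higher and 1 lower before and 6 of 8 higher and 2 lower after confinement (6 and 1 with the same total per library). Of 10 mast cell and basophil markers 6 were higher and 0 lower before, and 6 higher and 1 lower after it. Of 9 macrophage markers 4 were higher and 0 lower before, and 4 higher and 1 lower after it (7 and 1 with the same total per library). Of 9 DC markers 4 were higher and 1 lower before, and 0 higher and 3 lower after it (2 and 2 under that scaling). The part of these markers in the differences of the 10 genes was not tested.

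Between the LPS labels, none of the 10 genes was called higher or lower by limma, against 0% of all genes in each direction. At an unadjusted p under 0.05, limma gave 890, edgeR 812 and DESeq2 831 of all genes and none of the 10. Without the 3 libraries that go against their labels the label cPLA_2_ WT is left with a lone library, which has no spread of its own. Counts of called genes in that setting are therefore not read as a result and are listed only among the alternatives of the processing. *Pla2g7* differed by 0.37 in it. These values do not show whether the knockout changes the response to LPS.

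Confined cells were also set against LPS-treated cells. Of the 10 genes, 6 (*Pla2g4a*, *Pla2g15*, *Pla2g12a*, *Alox5*, *Alox5ap* and *Lta4h*) were higher in confined cPLA_2_ WT than in LPS libraries, against 24.5% of all genes, and none was lower, against 29.8%. *Pla2g12a* differed most, by 0.89 (interval 0.76 to 1.02), and *Lta4h* least among the called genes, by 0.27 (interval 0.18 to 0.36), or 0.56 with the same total per library. Without the LPS libraries that go against their labels these differences were 0.91 and 0.23, and 6 of the 10 genes were higher and 1 lower, against 22.3% and 27.0% of all genes. *Cysltr1* was then called as well, lower in confined cells (-0.24, adjusted p = 0.0168, against -0.18 and 0.0920 with all 6), whereas the value turned to 0.11 (adjusted p = 0.335) with all 6 and the same total per library. Against LPS, lower markers in confined cPLA_2_ WT cells were 9 of 9 for DCs and 8 of 9 for neutrophils, where 1 was higher. Of 8 eosinophil markers 6 were lower and 2 higher, and of 10 mast cell and basophil markers 7 lower and 2 higher. Of 9 macrophage markers 5 were lower and 3 higher, or 1 and 3 with the same total per library. In confined cPLA_2_ KO cells 6 genes (*Pla2g6*, *Pla2g15*, *Pla2g12a*, *Alox5*, *Alox5ap* and *Lta4h*) were higher than in LPS libraries, against 30.3% of all genes, and *Pla2g4a* was lower, against 32.5%. *Pla2g15* differed most, by 1.23 (interval 1.13 to 1.33), or 1.20 without the LPS libraries that go against their labels, where 7 of the 10 genes were higher and none lower, against 28.4% and 30.7% of all genes. The difference of *Pla2g4a*, -0.16 (adjusted p = 0.0102), was not called without the LPS libraries that go against their labels (-0.14, adjusted p = 0.0628) or without confined cPLA_2_ KO replicate 2 (-0.13, adjusted p = 0.0602), and it turned to 0.28 (adjusted p = 4.79e-05) with the same total per library. *Pla2g7* was called without those LPS libraries (0.21, adjusted p = 0.00155, against 0.18 and 0.0565 with all 6). The same total per library moved the share of higher values among the called genes from 45.2% to 75.0% for confined cPLA_2_ WT and from 48.2% to 77.2% for confined cPLA_2_ KO cells, and the medians of all genes to 0.27 and 0.46. Of the 10 genes, 9 (all but *Cysltr1*) were then called higher in confined cPLA_2_ WT cells, against 45.1% of all genes, and 10 in confined cPLA_2_ KO cells, against 56.6%, and none was lower in either, against 15% and 16.7%. Against LPS on the deposited scale, 9 of 9 DC markers were lower in confined cPLA_2_ KO cells. Of 8 eosinophil markers 5 were lower and 2 higher, and of 10 mast cell and basophil markers 7 lower and 1 higher. With the same total per library 8 DC markers were lower, and 4 eosinophil markers were lower and 3 higher. Mast cell and basophil markers were then 4 lower and 1 higher. Of 9 neutrophil markers 4 were higher and 1 lower, or 6 and 0 with the same total per library. Of 9 macrophage markers 3 were higher and 3 lower, or 7 and 2 under that scaling. The part of these markers in the differences of the 10 genes was not tested.

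The genes around the pathway were described from lists of other members of it. Of 17 other phospholipases A_2_ and related genes, 9 passed the filter, and 6 (*Pla2g1b*, *Pla2g2a*, *Pla2g2c*, *Pla2g2f*, *Pla2g10* and *Pla2g12b*) had no read in any library. Counts of called genes in this and the following lists stand beside the shares of all genes tested, which were 28.2% higher and 28.4% lower for confinement of cPLA_2_ WT cells, 22.8% and 23.4% for that of cPLA_2_ KO cells, and 10.2% and 15.6% for the interaction. Between genotypes these shares were 4.78% and 4.11% before and 18.8% and 20.6% after confinement. They were 37.2% and 34.3% for LPS, 24.5% and 29.8% for confined cPLA_2_ WT cells against LPS, and 30.3% and 32.5% for confined cPLA_2_ KO cells against LPS. Several list counts lie near these shares. The same total per library, whose list counts are given where they differ, moved the shares of higher and lower genes to 20.0% and 41.3% for confinement of cPLA_2_ WT cells, 20.8% and 25.9% for that of cPLA_2_ KO cells, 4.23% and 5.85% between nonconfined genotypes and 20.4% and 56.8% for LPS, with the other shares under this scaling as given above. Confinement raised 2 and lowered 2 of these phospholipases in cPLA_2_ WT cells, and 1 rose and 2 fell in cPLA_2_ KO cells, with 1 higher and 2 lower in the interaction. Between the genotypes none was called higher and none lower in cPLA_2_ KO cells before confinement, and 2 higher and 2 lower after it. LPS raised 2 and lowered none, with the same counts when the LPS libraries that go against their labels are left out. Relative to LPS, 1 was higher and 4 lower in confined cPLA_2_ WT cells, and 1 higher and 2 lower in confined cPLA_2_ KO cells (0 and 3 without those libraries). Scaled to the same total per library, the counts of higher and lower genes that differed from these were 2 and 1 for the interaction, 3 and 2 for the genotypes after confinement, 2 and 3 for LPS and 2 and 1 for confined cPLA_2_ KO cells against LPS. *Pnpla8*, a calcium-independent phospholipase A_2_ and the most abundant of the list per kilobase, had 2235 ± 123 (SD, n = 3) normalized counts in nonconfined cPLA_2_ WT, 3205 ± 172 (SD, n = 3) in confined cPLA_2_ WT and 4231 ± 129 (SD, n = 3) in LPS libraries labelled cPLA_2_ WT. *Pla2g4f*, which encodes another enzyme of the cytosolic family, rose with LPS by 2.76 (adjusted p = 6.52e-13), from a mean of 123 in nonconfined to 759 in LPS libraries labelled cPLA_2_ WT, and fell by 1.01 with confinement in cPLA_2_ KO cells (adjusted p = 0.000781). Without the LPS libraries that go against their labels the LPS change of *Pla2g4f* was 2.89.

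Platelet-activating factor is made from the other product of cPLA_2_, a lysophospholipid, and 7 of 7 genes of its turnover passed the filter. Of these genes, 4 rose and 3 fell with confinement in cPLA_2_ WT cells, and 3 rose and 2 fell in cPLA_2_ KO cells, with 1 higher and 3 lower in the interaction. Against the wild type none was called higher and none lower in cPLA_2_ KO cells before confinement, and 1 higher and 4 lower after it. LPS raised 4 and lowered 2, with the same counts when the LPS libraries that go against their labels are left out. Set against LPS libraries, 1 was higher and 4 lower in confined cPLA_2_ WT cells, and 1 higher and 5 lower in confined cPLA_2_ KO cells. When each library was scaled to the same total, the counts of higher and lower genes that differed from these were 3 and 3 for confinement of cPLA_2_ WT cells, 2 and 2 for confinement of cPLA_2_ KO cells, 1 and 2 for the interaction, 3 and 2 for the genotypes after confinement, 3 and 4 for LPS, 3 and 3 for confined cPLA_2_ WT cells against LPS and 2 and 2 for confined cPLA_2_ KO cells against LPS. *Ptafr*, which encodes the receptor of this lipid and was the most abundant of the list per kilobase, had 6218, 6052 and 6111 normalized counts in nonconfined and 20402, 19350.4 and 19742 in confined cPLA_2_ WT libraries. In cPLA_2_ KO libraries it had 7229, 7701 and 7384 before and 15184, 13666 and 14576 after confinement. All confined libraries were above all nonconfined libraries, and the genotypes did not overlap. Confinement raised *Ptafr* by 1.69 in cPLA_2_ WT and by 0.96 in cPLA_2_ KO cells, with an interaction of -0.73 (adjusted p = 0.000131). With LPS it changed by 1.51, or 1.46 without the libraries that go against their labels. *Lpcat1*, which encodes an acyltransferase of this pathway, changed by -1.17 with confinement in cPLA_2_ WT cells (adjusted p = 1.63e-11), by -1.16 in cPLA_2_ KO cells and by -0.69 with LPS, the last being -0.65 without those libraries.

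Free arachidonic acid can be bound to coenzyme A and put back into phospholipids. Of 9 genes for these steps 8 passed the filter, and *Acsl6* had no read. In cPLA_2_ WT cells 2 of these genes rose and 3 fell with confinement, and 3 rose and 4 fell in cPLA_2_ KO cells, with 2 higher and 1 lower in the interaction. By genotype, 1 was called higher and 3 lower in cPLA_2_ KO cells before confinement, and 4 higher and 1 lower after it. LPS raised 4 and lowered 4, with the same counts when the LPS libraries that go against their labels are left out. Compared with LPS, 1 was higher and 5 lower in confined cPLA_2_ WT cells, and 1 higher and 5 lower in confined cPLA_2_ KO cells. Under the same total per library, the counts of higher and lower genes that differed from these were 2 and 5 for confinement of cPLA_2_ WT cells, 3 and 1 for the interaction, 0 and 3 for the genotypes before confinement, 5 and 1 for the genotypes after confinement, 3 and 5 for confined cPLA_2_ WT cells against LPS and 3 and 3 for confined cPLA_2_ KO cells against LPS. *Acsl5*, an acyl-CoA synthetase and the most abundant of the list per kilobase, had 9788, 9962 and 9797 normalized counts in nonconfined cPLA_2_ WT and 4746, 4637 and 4275 in confined cPLA_2_ WT libraries, without overlap. With confinement it changed by -1.11 in cPLA_2_ WT and by -1.14 in cPLA_2_ KO cells (interaction -0.03, adjusted p = 0.809, turning to 0.16 and 0.0484 with the same total per library). *Acsl1*, from the same family, differed most with LPS among the list genes named here (3.36, or 3.28 without the libraries that go against their labels). Its LPS libraries had 7421, 4617 and 5928 normalized counts with the label cPLA_2_ WT and 4242, 7051 and 5728 with the label cPLA_2_ KO, so that the 2 labels overlapped, against 553, 509.9 and 583 in nonconfined cPLA_2_ WT libraries. *Mboat1*, a membrane-bound acyltransferase, changed by -1.32 with confinement in cPLA_2_ WT cells (adjusted p = 4.08e-07).

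Among 6 other lipoxygenases 4 passed the filter. Confinement raised none and lowered 3 of these lipoxygenases in cPLA_2_ WT cells, and none rose and 2 fell in cPLA_2_ KO cells, with none higher and none lower in the interaction. Between the genotypes 1 was called higher and none lower in cPLA_2_ KO cells before confinement, and 3 higher and none lower after it. LPS raised 1 and lowered 1, with the same counts when the LPS libraries that go against their labels are left out. Relative to LPS, none was higher and 4 lower in confined cPLA_2_ WT cells (0 and 3 without those libraries), and none higher and none lower in confined cPLA_2_ KO cells (0 and 1 without those libraries). Scaled to the same total per library, the counts of higher and lower genes that differed from these were 2 and 0 for the interaction and 0 and 3 for LPS. *Alox15*, which encodes a lipoxygenase known from eosinophils and macrophages and was the most abundant of the list per kilobase, had 968, 912 and 954 normalized counts in nonconfined cPLA_2_ WT and 2354, 2386 and 2328 in nonconfined cPLA_2_ KO libraries. After confinement it had 213, 237 and 212 in cPLA_2_ WT and 729, 659 and 688 in cPLA_2_ KO libraries. The cPLA_2_ KO libraries were higher in both treatments, by 1.32 (adjusted p = 4.99e-05) and 1.65 (adjusted p = 7.76e-08), and so was the eosinophil sum, whose part in this difference was not tested. Confinement changed *Alox15* by -2.10 in cPLA_2_ WT and by -1.77 in cPLA_2_ KO cells, and LPS by -0.86, or -0.93 without the libraries that go against their labels.

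Leukotrienes leave the cell through transporters and are converted or inactivated by further enzymes. Of 14 genes with such roles 13 passed the filter. Of these genes, 5 rose and 2 fell with confinement in cPLA_2_ WT cells, and 5 rose and 4 fell in cPLA_2_ KO cells, with 2 higher and 2 lower in the interaction. Against the wild type 1 was called higher and 1 lower in cPLA_2_ KO cells before confinement, and 4 higher and 3 lower after it. LPS raised 3 and lowered 8, or 2 and 9 without the LPS libraries that go against their labels. Set against LPS libraries, 9 were higher and 1 lower in confined cPLA_2_ WT cells, and 8 higher and 2 lower in confined cPLA_2_ KO cells (7 and 1 without those libraries). When each library was scaled to the same total, the counts of higher and lower genes that differed from these were 3 and 5 for confinement of cPLA_2_ WT cells, 4 and 4 for confinement of cPLA_2_ KO cells, 3 and 2 for the interaction, 6 and 1 for the genotypes after confinement, 2 and 10 for LPS, 10 and 0 for confined cPLA_2_ WT cells against LPS and 11 and 0 for confined cPLA_2_ KO cells against LPS. *Abcc1*, the transporter that exports leukotriene C4, had 2501, 2382 and 2424 normalized counts in nonconfined cPLA_2_ WT, 9067, 9178 and 9580.2 in confined cPLA_2_ WT libraries, and 9053, 8571 and 8844 in those of confined cPLA_2_ KO cells. It rose by 1.93 in cPLA_2_ WT (adjusted p = 5.48e-14) and by 1.90 in cPLA_2_ KO cells, opposite in direction to *Ltc4s*, and by 2.19 with LPS (2.10 without the libraries that go against their labels). *Ptgr1*, whose enzyme inactivates leukotriene B4, had 1238, 1207 and 1154 normalized counts in nonconfined and 4312, 4103 and 3787 in confined cPLA_2_ WT libraries. Its change was 1.76 with confinement in cPLA_2_ WT, 2.12 in cPLA_2_ KO cells and 0.81 with LPS, the last being 0.75 without those libraries. *Dpep3*, of a family of membrane dipeptidases, changed by -1.32 in cPLA_2_ WT and -0.77 in cPLA_2_ KO cells (interaction 0.55, adjusted p = 0.0298) and by -2.14 with LPS (-2.02 without those libraries). *Ephx1*, an epoxide hydrolase, fell with LPS (-1.20, or -1.14 without them). *Cotl1*, which encodes a protein that binds 5-lipoxygenase, was the most abundant of the list per kilobase, where *Dpep2* has no transcript length, and differed by 0.15 with confinement in cPLA_2_ WT cells (adjusted p = 0.0122), or by -0.08 with the same total per library (adjusted p = 0.192).

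Of 5 other leukotriene receptors 3 passed the filter, and *Gpr17* and *Oxgr1* had no read. In cPLA_2_ WT cells 1 of these receptors rose and 2 fell with confinement, and none rose and 1 fell in cPLA_2_ KO cells, with none higher and 1 lower in the interaction. By genotype, none was called higher and none lower in cPLA_2_ KO cells before confinement, and 1 higher and 1 lower after it. LPS raised 1 and lowered 2, with the same counts when the LPS libraries that go against their labels are left out. Compared with LPS, 2 were higher and none lower in confined cPLA_2_ WT cells, and 1 higher and 1 lower in confined cPLA_2_ KO cells. Under the same total per library, the counts of higher and lower genes that differed from these were 0 and 2 for confinement of cPLA_2_ KO cells and 1 and 1 for the interaction. *Ltb4r1*, the receptor of leukotriene B4 and the most abundant of these per kilobase, had 2539.7, 2297 and 2370.2 normalized counts in nonconfined cPLA_2_ WT, 1891, 1766 and 1959 in confined cPLA_2_ WT and 798, 923 and 845 in LPS libraries labelled cPLA_2_ WT, 3 ranges that did not overlap. It changed by -0.36 with confinement in cPLA_2_ WT cells (adjusted p = 3.71e-05) and by -1.58 with LPS (-1.54 without the libraries that go against their labels).

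All 7 genes for regulators of cPLA_2_ passed the filter. Confinement raised 3 and lowered 3 of these regulators in cPLA_2_ WT cells, and 3 rose and 3 fell in cPLA_2_ KO cells, with 1 higher and 1 lower in the interaction. Between the genotypes 1 was called higher and none lower in cPLA_2_ KO cells before confinement, and 4 higher and 1 lower after it. LPS raised 3 and lowered 4, or 2 and 4 without the LPS libraries that go against their labels. Relative to LPS, 3 were higher and 1 lower in confined cPLA_2_ WT cells, and 6 higher and 1 lower in confined cPLA_2_ KO cells. Scaled to the same total per library, the counts of higher and lower genes that differed from these were 2 and 3 for confinement of cPLA_2_ WT cells, 5 and 0 for the interaction, 5 and 0 for the genotypes after confinement, 1 and 6 for LPS and 6 and 1 for confined cPLA_2_ WT cells against LPS. *Anxa2*, an annexin and the most abundant of the list per kilobase, had 23354, 23184 and 23285 normalized counts in nonconfined cPLA_2_ WT, 37859, 35051 and 36491 in confined cPLA_2_ WT libraries, and 32219, 30635 and 30710 in those of confined cPLA_2_ KO cells. It rose by 0.65 in cPLA_2_ WT and by 0.36 in cPLA_2_ KO cells, with an interaction of -0.28 (adjusted p = 0.00145) that was not called with the same total per library (-0.10, adjusted p = 0.234), and by 1.62 with LPS (1.63 without the libraries that go against their labels). *Mapk14*, the gene of the kinase p38α, went the other way, by -0.71 in cPLA_2_ WT and -0.28 in cPLA_2_ KO cells (interaction 0.42, adjusted p = 0.00229) and -1.17 with LPS (-1.10 without those libraries).

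The genes whose levels most resembled those of 2 members over the 18 libraries were sought among 10544 genes with a symbol and a mean of at least 100 normalized counts, by the Pearson correlation of log2(normalized count + 1). For *Pla2g4a* they were *Sestd1* (0.984), *Tiparp* (0.977), *Specc1l* (0.969), *Picalm* (0.967) and *Ahr* (0.964). For *Alox5* they included *Pold1* (0.994), *Map4k1* (0.993), *Cdh1* (0.993) and *Srm* (0.993). The libraries fall into 6 conditions, so these values describe likeness across conditions and carry no test. *Sestd1*, for example, had means of 2044 normalized counts in nonconfined cPLA_2_ WT, 3799 in confined cPLA_2_ WT libraries, and 2604 in those of confined cPLA_2_ KO cells, the same order as *Pla2g4a* over these 3 conditions.

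Of the 10 genes 8 have an entry among the RefSeq promoters, and *Alox5ap* and *Cysltr1* have none. Promoters are shown for the 4 of these 8 that fell together, with confinement in both genotypes and with LPS. Each window holds 300 bases around the start of the gene, 5′ to 3′, in the build GRCm38.p6, which is older than the GRCm39 of the counts. They lie at chr6:116461129-116461428 on the minus strand for *Alox5*, chr10:93453146-93453445 on the plus strand for *Lta4h*, chr11:50238483-50238782 on the minus strand for *Ltc4s* and chr8:106150104-106150403 on the plus strand for *Pla2g15*. Capitals mark matches, on either strand, to any of the motifs searched.
Alox5: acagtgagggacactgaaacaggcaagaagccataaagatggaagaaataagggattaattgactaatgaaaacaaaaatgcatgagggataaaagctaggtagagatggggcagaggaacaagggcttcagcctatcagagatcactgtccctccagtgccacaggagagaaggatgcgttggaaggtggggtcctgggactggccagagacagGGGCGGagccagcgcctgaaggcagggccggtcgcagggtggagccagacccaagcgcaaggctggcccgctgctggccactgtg
Lta4h: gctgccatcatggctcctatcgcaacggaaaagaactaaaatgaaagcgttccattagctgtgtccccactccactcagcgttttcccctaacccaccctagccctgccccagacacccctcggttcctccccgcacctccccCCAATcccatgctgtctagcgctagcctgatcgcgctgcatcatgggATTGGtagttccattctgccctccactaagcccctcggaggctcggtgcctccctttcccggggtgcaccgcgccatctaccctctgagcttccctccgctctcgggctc
Ltc4s: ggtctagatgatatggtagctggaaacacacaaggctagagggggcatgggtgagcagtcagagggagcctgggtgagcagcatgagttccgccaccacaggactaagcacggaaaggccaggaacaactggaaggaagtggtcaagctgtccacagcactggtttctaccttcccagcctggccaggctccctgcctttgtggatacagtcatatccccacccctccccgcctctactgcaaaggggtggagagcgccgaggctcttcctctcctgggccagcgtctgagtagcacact
Pla2g15: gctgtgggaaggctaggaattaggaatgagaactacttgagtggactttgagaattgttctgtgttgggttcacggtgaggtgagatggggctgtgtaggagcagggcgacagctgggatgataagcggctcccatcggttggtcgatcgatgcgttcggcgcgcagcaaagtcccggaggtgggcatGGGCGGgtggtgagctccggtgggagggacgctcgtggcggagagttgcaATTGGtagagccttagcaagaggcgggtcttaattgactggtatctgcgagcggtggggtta
The motif GGGCGG, the GC box, is in *Alox5* and *Pla2g15* and in 35.7% of all 32851 promoters, and CCAAT is in *Lta4h* and *Pla2g15* and in 37.4% of all. Members not shown hold them too, with the GC box in *Pla2g6* and *Pla2g7* and CCAAT in *Pla2g4a*, *Pla2g6* and *Pla2g12a*. The other motifs, which none of these 4 windows holds, were TATAAA (in 13.6% of all promoters), TGANTCA (7.81%), TGACGTCA (1.79%), GGANTTTCC (1.25%) and GAAANNGAA (8.56%). The share of G and C was 55.7% in *Alox5*, 60.7% in *Lta4h*, 58.7% in *Ltc4s* and 57.7% in *Pla2g15*, against a median of 52.7% over all promoters. In members not shown it was 59.0% in *Pla2g6*, 54.0% in *Pla2g7*, 50.3% in *Pla2g12a*, and 41.0% and 45.3% in the windows of *Pla2g4a*. None of the motifs searched contains another, and a match describes letters of the window, not a site of binding.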

How the data were processed

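Poly(A) RNA of 18 libraries was sequenced strand-specifically. Per the labels, the authors mapped reads with STAR 2.7.5a to GRCm39, counted them on genes of the FAST DB annotation with featureCounts 1.5.0 and scaled them with DESeq2 in R 3.5.3. The deposited values are a signal, namely normalized counts (reads divided by the size factor of the library), without scaling for gene length. Multiplied by 1 factor per library, 100% of values were whole within 0.001, which gave back 33027230 to 61300021 reads per library.

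The 17875 genes that reached 10 normalized counts in 3 or more libraries were compared with limma 3.58.1 in R 4.3.3 (lmFit, contrasts.fit, eBayes with trend) on log2(normalized count + 1), with a mean for each of 6 conditions and Benjamini-Hochberg adjustment within each of 9 comparisons. The procedure was tested on simulated counts with changes in confined cPLA_2_ WT libraries only. It recovered 96 of 100 genes changed 1.5-fold and 100 of 100 changed 2-fold, with 9 false calls among 16437 genes. In the data 56.6% of all genes were called for this comparison, far more than were changed in the simulation. The other comparisons were not simulated. Alternatives were pseudocounts of 0.5 and 5, no filter and a filter of 100, TMM scaling, each library at the same total, edgeR 4.0.16, DESeq2 1.42.0, the compared conditions alone, a replicate block, each library left out, LPS libraries by label or as 1 group, and a log2 fold change above 1. Leaving out the LPS libraries whose Y-linked genes go against their labels was chosen after seeing the data.

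All 10 members were named. Other list genes were named if called with an absolute log2 fold change above 1 with confinement, in the interaction or with LPS at a mean of at least 100, or if most abundant of their list per kilobase. Genes were also named from the 5 most correlated with *Pla2g4a* and the 5 most correlated with *Alox5*. Members and lists were chosen with earlier results of these data known.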

Additional observations from a re-analysis of the deposited data

Results flagged for a closer look

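The change with confinement differed between the genotypes, by the test of the interaction, for 4 of the 10 genes, against 25.8% of all genes. The change in cPLA_2_ KO minus the change in cPLA_2_ WT cells was 0.40 for *Alox5*, 0.32 for *Lta4h*, 0.26 for *Pla2g15* and -0.20 for *Alox5ap*, on the log2 scale. The call of *Alox5ap* was lost in 13 of 22 alternatives, with -0.011 under the same total per library, and that of *Pla2g15* in 2. In the same test 8 of 9 neutrophil markers were higher, 6 of 9 dendritic cell markers lower (1 higher and 3 lower with the same total per library), and mast cell and basophil markers 4 higher and 2 lower of 10. Their part in these results was not tested.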

How the results depend on the processing

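The 90 results for single genes (10 genes in 9 comparisons) had 1710 values under alternatives. Of these 1600 kept their direction and side of the threshold, 26 lost the call and 45 gained it. In 35 the sign turned with no call in either setting, 26 of them with 1 library left out, 6 with the same total per library and 3 without the LPS libraries that go against their labels. In 4, called in at least 1 setting, the direction reversed, each with the same total per library: confinement in cPLA_2_ WT for *Pla2g12a* (-0.011) and *Alox5ap* (-0.060), LPS for *Pla2g6* (-0.20) and confined cPLA_2_ KO against LPS for *Pla2g4a* (0.28). That scaling also gave 9 genes called of 10 between confined genotypes, against 48.1% of all genes. The cause was not tested.

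A log2 fold change above 1, which is a stricter call by construction, left 4 of the 10 genes and 3400 of all genes for confinement in cPLA_2_ WT, 1 and 2139 in cPLA_2_ KO, 0 and 1371 for the interaction, 0 and 206 between nonconfined genotypes, 0 and 1805 between confined genotypes, 5 and 5188 for LPS, 0 and 2647 for confined cPLA_2_ WT against LPS, and 1 and 4227 for confined cPLA_2_ KO against LPS. Between the LPS labels 1 gene was called with no filter, and 535 genes, 1 of them of the 10, without the LPS libraries that go against their labels, a setting chosen after seeing the data. In that last setting the label cPLA_2_ WT keeps a lone LPS library, which has no spread of its own. Its counts are therefore not read as a difference between the labels. With 1 library left out at a time, 2 to 5 of the 10 genes and 4068 to 4670 of all genes were called in the interaction. Of all genes, 756 to 2097 were then called between nonconfined genotypes and 0 to 3 between the LPS labels.

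Whether replicates of the same number were paired was not clear, with correlations of residuals between -0.142 and 0.338. Between the confined genotypes these were 0.338, 0.208 and 0.040 for replicates 1, 2 and 3. Between nonconfined and confined cPLA_2_ WT cells they were 0.183, 0.106 and -0.064. For cPLA_2_ KO cells the corresponding values were 0.005, 0.028 and -0.019. With a replicate block, 10, 8, 3, 4, 4, 0, 10, 6 and 7 of the 10 genes were called for confinement in cPLA_2_ WT, confinement in cPLA_2_ KO, the interaction, genotype in nonconfined and in confined cells, LPS labels, LPS, and confined cPLA_2_ WT and cPLA_2_ KO against LPS. The call lost in the interaction was that of *Alox5ap* (adjusted p = 0.0554). Of all genes, 10002, 8138, 4426, 1384, 6861, 0, 12718, 9576 and 11166 were called in these comparisons with the replicate block. Depth limited *Pla2g6* most, with 226 reads in its weakest library.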
